A study of Mus musculus with 2 samples.

Results

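The genes described here are 6 kinase genes of the RAF, MEK and ERK cascade, taken as a list of symbols from the 32285 genes of the count tables: the RAF kinase genes Araf and Braf, the scaffold gene Ksr1, the MEK genes Map2k1 and Map2k2, and the ERK1 gene Mapk3. Each of the 6 symbols occurred once in the tables.

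Bone marrow cells of female C57BL/6 mice aged 10 weeks were grown for 4 days in GM-CSF (50 ng/mL) plus IL-6 (50 ng/mL), which yields myeloid-derived suppressor cells (MDSC), a mix of immature monocytic and granulocytic cells. Both cultures had the genotype C57BL/6 and received both cytokines, 1 together with 1.5 µM dabrafenib (DAB), a kinase inhibitor developed against mutant BRAF, and 1 with the solvent DMSO. For single-cell RNA sequencing, each culture gave 1 library in the 5′ chemistry of 10x Genomics, which counts each captured RNA molecule once through a unique molecular identifier (UMI). How many mice went into a library is not given in the sources read here.

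In this cascade, RAS proteins bound to GTP bring RAF kinases to the membrane, where they work as dimers and phosphorylate MEK1 and MEK2, which in turn phosphorylate the ERK kinases, and ERK then phosphorylates targets in the cytoplasm and nucleus. KSR1 is a relative of the RAF kinases that holds RAF and MEK together. In myeloid cells the receptors for GM-CSF and IL-6 feed into this cascade beside the JAK and STAT proteins, and an inhibitor of mutant BRAF can raise ERK phosphorylation in cells with wild-type BRAF by favouring RAF dimers. The values below are RNA levels, and no phosphorylation was measured in these files.

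The start regions of Braf, Map2k1 and Map2k2 are shown because Braf had the lowest and Map2k1 and Map2k2 the highest ratios between the libraries among the 6 genes. RefSeq windows (GRCm38.p6) matched 5 of the 6 genes, with Mapk3 unmatched, and each sequence is the 250 bases before the RefSeq start, read 5′ to 3′ on the gene's strand. Capitals mark TGACG on either strand, of which TGACGTCA, the cAMP response element bound by CREB and ATF proteins, is the full palindrome and so overlaps it. The Braf window is chr6:39725464-39725713 (minus strand), the Map2k1 window chr9:64253606-64253855 (minus strand) and the Map2k2 window chr10:81105665-81105914 (plus strand).
Braf: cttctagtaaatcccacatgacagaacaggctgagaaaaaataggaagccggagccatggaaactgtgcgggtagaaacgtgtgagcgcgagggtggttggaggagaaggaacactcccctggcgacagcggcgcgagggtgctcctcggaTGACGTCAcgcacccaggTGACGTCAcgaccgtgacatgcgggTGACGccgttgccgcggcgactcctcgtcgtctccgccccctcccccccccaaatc
Map2k1: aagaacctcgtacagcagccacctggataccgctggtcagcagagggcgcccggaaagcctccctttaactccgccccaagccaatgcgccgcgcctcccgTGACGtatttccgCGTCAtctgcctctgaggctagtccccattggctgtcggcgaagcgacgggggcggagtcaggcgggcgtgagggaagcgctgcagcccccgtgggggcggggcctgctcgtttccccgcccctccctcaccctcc
Map2k2: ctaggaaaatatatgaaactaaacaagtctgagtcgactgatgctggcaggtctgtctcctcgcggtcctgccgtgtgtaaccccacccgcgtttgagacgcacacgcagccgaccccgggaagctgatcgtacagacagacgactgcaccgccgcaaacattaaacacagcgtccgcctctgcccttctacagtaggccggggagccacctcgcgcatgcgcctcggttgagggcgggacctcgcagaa
The Braf window held TGACGTCA at 2 positions, 99 and 81 bases before the start, while 1.55% of the 32851 windows in the RefSeq table held it on either strand. Map2k1 held only TGACG, at 149 and 136 bases before the start, and Map2k2 held neither. Of the genes not shown, Ksr1 held TGACG in 1 of its 2 windows, at 149 bases before the start, and Araf held neither. TGACG was present in 17.8% of all windows. GGGCGG, the GC box bound by Sp1, was searched on both strands, and Map2k1 held 4 matches, Braf, Map2k2 and each of the 2 windows of Ksr1 held 1, and Araf none, while 32.7% of all windows held it. G and C made up 62.0% of the Braf, 68.4% of the Map2k1 and 59.6% of the Map2k2 window, while the median over all windows was 52.4%. The shares of windows with a motif were not matched for this. A match of letters describes the window and says nothing on which factor binds there in these cells.

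After filtering, 9032 DMSO cells with 92409383 UMIs and 10476 DAB cells with 141281712 UMIs remained, at medians of 7539.5 and 9569.5 UMIs per cell, and 152 cell barcodes occurred in both deposited files. Levels are UMIs summed over cells and divided by the library's or class's total, as counts per 1000000 (CPM). With 1 library per condition no test between conditions was possible. The 95% intervals (exact Poisson for levels, exact binomial for shares and ratios) cover counting error only. A direction was read only from a log2 ratio, DAB over DMSO, of at least 0.5 in size whose interval left out 0. The labelled cell type was checked with myeloid markers, which were present in both libraries: Itgam (CD11b) was at 420.5 CPM in DMSO and 540.2 in DAB, Ly6c2 at 351.3 and 616.5, and Ly6g at 141.6 and 104.2. Of 27 clusters, 14 were named from marker lists into 11 classes, 10 of which held 50 or more cells from both libraries, and 52.6% of DMSO and 48.3% of DAB cells stayed unnamed. The classes differed in share. From DMSO to DAB, chemokine-high granulocyte-like cells were 4.59% and 19.1%, mature PMN-like cells (polymorphonuclear, that is, neutrophil-like) 6.41% and 14.3%, intermediate granulocyte-like cells 9.24% and 1.84%, and immature monocyte-like cells 11.1% and 2.71%.

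Over all cells, Braf was lower in DAB past the threshold, and none of the other 5 genes passed it in either direction. Genes lower by this rule were 11.4% of the 5890 genes that reached 20 CPM in either library, and genes higher were 11.6%, so 1 call among 6 genes is near the background. Map2k1 and Map2k2 had positive ratios under the threshold, Mapk3 and Ksr1 negative ones, and Araf differed least. The median log2 ratio was -0.14 over the 6 genes and 0.01 over all genes tested.

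**Figure D1:**
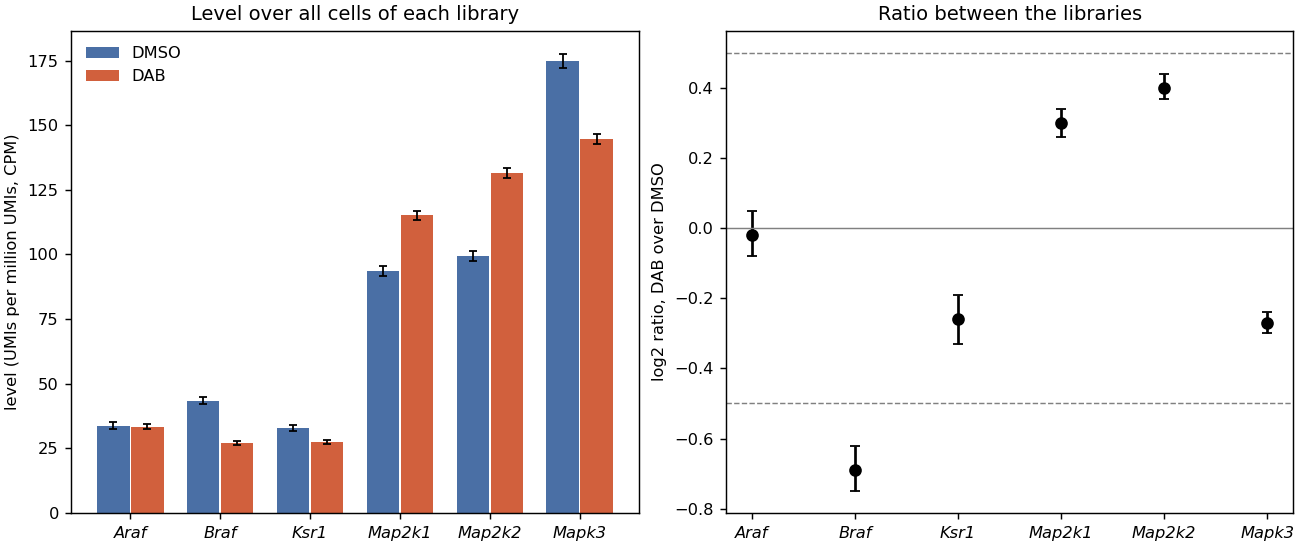
Left, the level of each gene (bars, CPM, from 0) over all 9032 DMSO and 10476 DAB cells, with exact Poisson 95% intervals. Right, the log2 ratio of DAB over DMSO with its exact binomial 95% interval and dashed lines at the threshold of 0.5 in size. Braf, at -0.69, is the gene outside the dashed lines. Bar heights are compared between libraries, not between genes.

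Braf encodes the RAF kinase that dabrafenib was designed against (ENSMUSG00000002413, GRCm38 chromosome 6 from 39603237 to 39725463, minus strand). Its 4015 UMIs in DMSO gave 43.4 CPM (42.1 to 44.8) and its 3812 UMIs in DAB gave 27.0 CPM (26.1 to 27.9). The 2 intervals did not meet, and the log2 ratio was -0.69 (-0.75 to -0.62), a level in DAB of 0.621 of that in DMSO (0.594 to 0.649). Of all genes tested, 6.15% had a lower ratio than Braf. With each cluster given 1 weight, its share of all cells, in both libraries, the log2 ratio was -0.61. DAB cells held more UMIs each, a shift of 0.40 on the log2 scale for every gene, and in UMIs per cell without scaling Braf was at 0.445 in DMSO and 0.364 in DAB. That log2 ratio, -0.29, was under the threshold.

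Braf was lower in DAB past the threshold in 4 of the 5 largest classes. In chemokine-high granulocyte-like cells Braf had 49.8 CPM in DMSO and 31.3 in DAB (log2 ratio -0.67, -0.94 to -0.39), where it was the only one of the 6 genes past the threshold, against 12.7% of genes lower and 8.34% higher. Immature monocyte-like cells had 36.3 and 25.6 CPM (-0.50, -0.80 to -0.22), in a class where 14.6% of genes were lower, but the ratio was -0.26 when the cells were clustered without first aligning the 2 libraries to each other. For intermediate granulocyte-like cells the levels were 67.9 and 40.2 CPM (-0.75, -1.07 to -0.45), with 14.8% of genes lower. Mature monocyte-like cells, where 18.3% of genes were lower and 15.6% higher, had the most negative ratio, with 29.0 and 15.3 CPM (-0.92, -1.19 to -0.65). The mature PMN-like class was under the threshold, with 50.9 CPM in DMSO and 39.7 in DAB (-0.36, -0.70 to -0.01), where 8.25% of genes were lower, although the ratio was -0.59 at a Leiden resolution (which sets how finely cells are split into clusters) of 0.5 and -0.66 without alignment. Granulocytic and monocytic classes thus both held lower Braf levels in DAB.

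Among the smaller classes, Braf in granulocyte progenitor-like cells had 45.3 CPM in DMSO and 24.8 in DAB (-0.87, -1.10 to -0.64), and its ratio in the class of that name was -0.33 when the clustering left out the genes that differ between the libraries. The share of all genes past the threshold was counted in the 5 largest classes only, so none stands beside the values here. Macrophage-like cells had 38.8 and 31.7 CPM (-0.29, -0.88 to 0.29). In activated dendritic cell-like cells the levels were 25.1 and 29.7 CPM (0.25, -0.21 to 0.69), in B cell-like cells 39.7 and 42.0 (0.08, -0.64 to 0.83), and in basophil or mast cell-like cells 25.6 and 41.5 (0.70, -0.36 to 1.88). The intervals in the last 4 of these classes hold 0, and whether their ratios differ from those of the other classes was not tested. The cells left unnamed gave 47.1 and 26.9 CPM (-0.81, -0.90 to -0.72). Among them, clusters 0, 1 and 12, nearest the mature PMN list, had Braf ratios of -0.70, -0.89 and -0.53. In the 24 clusters that held 50 or more cells from both libraries, the Braf ratio was below 0 in 21, and 14.2% of all genes tested were lower in at least as many clusters.

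Braf was highest in a cluster with an unusual RNA content. Cluster 17, unnamed, with Gria3, Kcnq5 and the nuclear RNA Neat1 among its leading genes, held 230 DMSO and 281 DAB cells, and in it Braf had 173.5 CPM in DMSO and 162.4 in DAB, while in the other 23 clusters it reached at most 67.9 and 43.6. Genes spanning over 100 kb made up 21.0% and 22.1% of the UMIs of this cluster, against 6.08% and 5.41% over all cells, and mitochondrial UMIs 3.90% and 5.05%, against 1.19% and 1.30%. In cluster 24, which had the next highest share of long genes in both libraries (7.94% and 7.18%), Braf was at 25.6 CPM in DMSO and 41.5 in DAB. The DMSO level there rests on 10 UMIs (12.3 to 47.1). Next in DMSO came clusters 8, 4 and 6, with long-gene shares of 7.71%, 7.29% and 7.20%. Braf was at 42.7, 48.9 and 64.4 CPM in them in DMSO and at 29.3, 43.6 and 39.6 in DAB. Braf spans 122.2 kb. Among 789 genes tested with a span over 100 kb the median log2 ratio was -0.13 and 15.1% were lower past the threshold, while among 1533 genes under 10 kb the median was 0.10 and 10.2% were lower. Malat1 and Neat1, both RNAs that stay in the nucleus, had log2 ratios of -0.51 and -1.14. The part of gene span and of nuclear RNA in the Braf ratio was not tested, and without cluster 17 the ratio was -0.72. A ferritin heavy chain pseudogene, Fth-ps2, lies inside Braf on the same strand and has no row of its own in the count tables, and its part was not tested. The ferritin gene Fth1 had 18502.7 CPM in DMSO and 19934.8 in DAB (log2 ratio 0.11). On the opposite strand, Ndufb2 overlaps the end of Braf.

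Araf, on the X chromosome (ENSMUSG00000001127, 20797814 to 20860519, plus strand), encodes the RAF kinase with the weakest basal activity. It was at 33.8 CPM in DMSO (32.6 to 35.0) and 33.4 in DAB (32.4 to 34.3), with a log2 ratio near 0 (-0.02, -0.08 to 0.05). Counting error thus leaves room for a level in DAB between 0.944 and 1.03 of that in DMSO. Within classes the ratios lay on both sides of 0. The intermediate granulocyte-like class was past the threshold, with 20.3 CPM in DMSO and 29.6 in DAB (0.55, 0.13 to 0.96), in a class where 25.8% of genes were higher. That call did not hold with median-of-ratios scaling (0.36), without the alignment of the libraries (0.22) or with clustering on genes that did not differ (0.28). Immature monocyte-like cells had 40.6 and 31.6 CPM (-0.36, -0.63 to -0.11). Of the 24 clusters, 14 had a positive and 10 a negative ratio, and 44.3% of genes were higher in at least as many clusters.

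Ksr1, the scaffold gene (ENSMUSG00000018334, chromosome 11 from 79013440 to 79146407, minus strand), was at 32.8 CPM in DMSO (31.6 to 34.0) and 27.4 in DAB (26.5 to 28.3). Its log2 ratio of -0.26 (-0.33 to -0.19) was under the threshold, and in UMIs per cell without scaling it was 0.14, with the sign turned.

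Ksr1 was below 0 in 21 of 24 clusters, and 14.2% of all genes tested were lower in at least as many. All 10 classes were below 0 (macrophage-like cells were at 0.06 without alignment), with an interval that left out 0 in 5 of them. Most of these classes are a single cluster, so the count of classes largely repeats that of clusters. The share of all genes below 0 in all 10 classes was not counted. Ksr1 ran from -0.15 in granulocyte progenitor-like to -1.45 in B cell-like cells. In the latter, Ksr1 rested on few UMIs, and the share of all genes past the threshold was not counted. It stood at 57.3 CPM in DMSO (39 UMIs) and 21.0 in DAB (22 UMIs), with a ratio interval of -2.27 to -0.66. In the 5 largest classes it was between -0.24 and -0.48, under the threshold in each, but mature PMN-like cells were at -0.66 without alignment and -0.64 without removing cell cycle effects, mature monocyte-like cells at -0.54 at a Leiden resolution of 1.5, and intermediate granulocyte-like cells at -0.63 with median-of-ratios scaling. Like Braf, Ksr1 was highest in cluster 17, at 209.2 CPM in DMSO and 230.9 in DAB, while the other 23 clusters reached at most 62.2 and 41.5. Map2k1 was also highest there in both libraries, at 158.1 and 204.1 CPM against at most 138.8 and 175.6 elsewhere, and Araf in DAB, at 48.7 against 43.9. Ksr1 spans 133.0 kb. Without that cluster the log2 ratio of Ksr1 was -0.30, and the part of gene span in it was not tested.

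Map2k1 and Map2k2, which encode MEK1 and MEK2, both had positive ratios over all cells that stayed under the threshold. Map2k1 (ENSMUSG00000004936, chromosome 9 from 64185770 to 64253631, minus strand) stood at 93.5 CPM in DMSO (91.6 to 95.5) and 115.2 in DAB (113.4 to 116.9), with the ratio at 0.30 (0.26 to 0.34). Map2k2 (ENSMUSG00000035027, chromosome 10 from 81105915 to 81133975, plus strand) stood at 99.4 CPM (97.4 to 101.5) and 131.4 (129.5 to 133.3), a log2 ratio of 0.40 (0.37 to 0.44). For both genes, as for Braf, Ksr1 and Mapk3, the intervals of the levels in DMSO and DAB did not meet. The share of all genes with such intervals was not counted. Of all genes tested, 77.2% had a lower ratio than Map2k1 and 83.6% a lower one than Map2k2, so many genes had higher ratios than either. With the mean taken over cells, so that each cell counts alike, Map2k2 was at 0.56, past the threshold, and Map2k1 at 0.31. In UMIs per cell without scaling, where every gene gains 0.40, Map2k2 was at 0.80 and Map2k1 at 0.70.

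Both MEK genes had ratios above 0 in all 10 classes, except that Map2k1 in granulocyte progenitor-like cells, at 0.35, was at -0.14 without alignment. The share of all genes above 0 in all 10 classes was not counted. For Map2k1, mature PMN-like cells were past the threshold, at 107.1 CPM in DMSO and 162.0 in DAB (0.60, 0.39 to 0.81), where 10.9% of genes were higher, but the ratio lay between 0.44 and 0.50 under 4 other clusterings. Immature monocyte-like cells passed too, at 79.9 and 114.4 CPM (0.52, 0.37 to 0.66), where 10.4% of genes were higher, although the ratio was 0.31 at a Leiden resolution of 0.5. The third class was macrophage-like, with 64.6 and 93.8 CPM (0.54, 0.15 to 0.92), where the share of all genes past the threshold was not counted. In the other 3 of the 5 largest classes Map2k1 was between 0.19 and 0.44. The unnamed cells, about as many as all named ones, had 105.7 and 111.1 CPM for Map2k1, a log2 ratio of 0.07 (0.02 to 0.13). Cluster 12, led by Chil3 and Gal, went the other way at 121.8 and 101.7 CPM (-0.26, -0.48 to -0.05), while 22 of 24 clusters were above 0, and 11.1% of all genes were higher in at least as many.

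For Map2k2, intermediate granulocyte-like cells passed the threshold, at 54.2 CPM in DMSO (48.6 to 60.2) and 88.2 in DAB (77.4 to 100.0), so that the ratio was 0.70 (0.46 to 0.94), in a class where 25.8% of genes were higher. The other 4 of the 5 largest classes lay between 0.31 and 0.42, although mature PMN-like cells were at 0.55 to 0.58 under 3 other clusterings, and the unnamed cells, at 99.7 and 123.5 CPM, at 0.31 (0.26 to 0.36). B cell-like cells had 79.3 and 134.7 CPM (0.76, 0.30 to 1.24), in a class where the share of all genes past the threshold was not counted. The ratio of Map2k2 was above 0 in 23 of 24 clusters, and 6.26% of all genes were higher in at least as many.

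Mapk3 encodes ERK1 (ENSMUSG00000063065, chromosome 7 from 126759601 to 126765819, plus strand) and had 16148 UMIs in DMSO and 20457 in DAB. The levels were 174.7 CPM (172.1 to 177.5) and 144.8 CPM (142.8 to 146.8), a log2 ratio of -0.27 (-0.30 to -0.24), under the threshold, and 0.13 in UMIs per cell without scaling, with the sign turned. The ratios of the classes ran from -0.48 to 0.11, and whether they differ from each other was not tested. Immature monocyte-like cells had 173.6 and 177.1 CPM (0.03, -0.08 to 0.14) and mature PMN-like cells 229.7 and 217.2 (-0.08, -0.23 to 0.07). Mature monocyte-like cells had 126.0 and 93.2 CPM (-0.44, -0.56 to -0.32) and granulocyte progenitor-like cells 145.0 and 103.6 (-0.48, -0.60 to -0.36). The progenitor class joined clusters 13 and 23, and the latter gave 133 of its 414 DMSO but 30 of its 404 DAB cells. In cluster 13 alone the Mapk3 ratio was -0.36 (-0.49 to -0.23), which touches the interval of mature PMN-like cells. The value in immature monocyte-like cells moved with the clustering, to -0.24 at a Leiden resolution of 0.5 and 0.25 without alignment, and that in granulocyte progenitor-like cells to -0.63 and -0.98. None of the 5 largest classes was past the threshold, although mature monocyte-like cells were at -0.53 at a Leiden resolution of 1.5 and -0.50 with clustering on genes that did not differ, and 22 of 24 clusters were below 0, with 9.47% of all genes lower in at least as many.

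**Figure D2:**
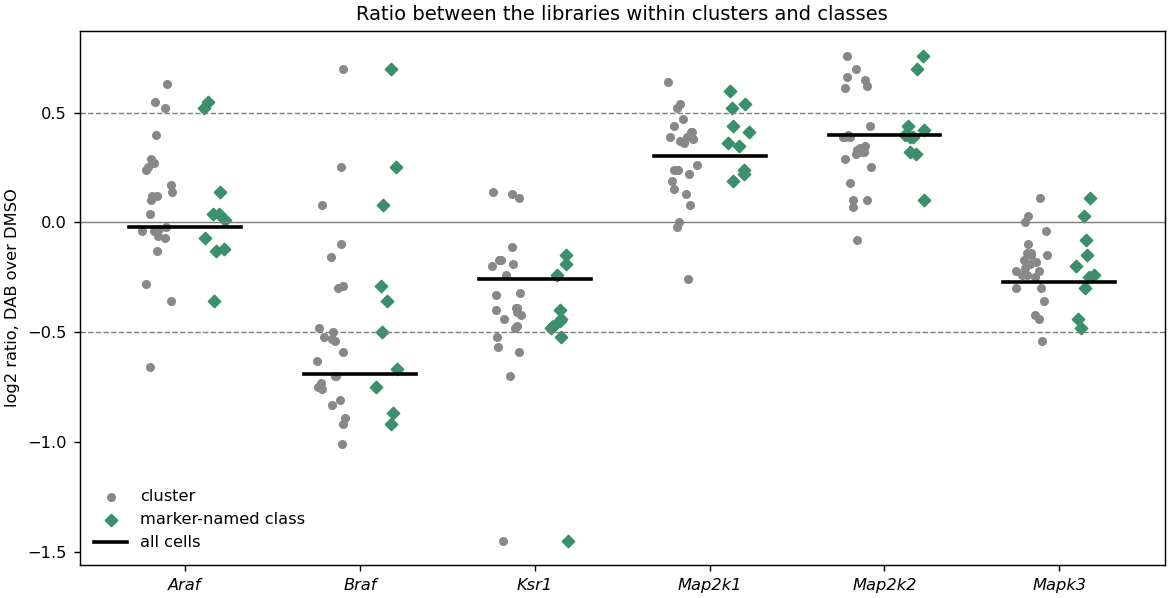
The log2 ratio of DAB over DMSO (y axis) for each gene (x axis), in the 24 clusters that held 50 or more cells from both libraries (grey points), in the 10 marker-named classes (green diamonds) and over all cells (black line), with dashed lines at 0.5 in size. Points have a small sideways offset. Braf lies mostly below and Map2k2 mostly above 0, and the lowest point of Ksr1, at -1.45, is the B cell-like class.

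The levels within a library set the classes apart in an order that differed between the genes. In DMSO, Braf was highest in intermediate granulocyte-like cells at 67.9 CPM (61.7 to 74.6), followed by mature PMN-like at 50.9, chemokine-high granulocyte-like at 49.8, granulocyte progenitor-like at 45.3, B cell-like at 39.7, macrophage-like at 38.8, immature monocyte-like at 36.3, mature monocyte-like at 29.0, basophil or mast cell-like at 25.6 and activated dendritic cell-like at 25.1. In this library the granulocyte classes thus stood above the monocyte classes. Of the 9 pairs of neighbours in this order, the ratio interval left out 0 in 2, and the other 7 did not differ beyond counting error. In DAB the order ran from B cell-like cells at 42.0, basophil or mast cell-like at 41.5, intermediate granulocyte-like at 40.2 and mature PMN-like at 39.7 CPM to mature monocyte-like at 15.3 (13.4 to 17.5), where the last step alone left out 0. Granulocyte progenitor-like cells in DAB, at 24.8 CPM, were below immature monocyte-like cells at 25.6, a pair that did not differ beyond counting error. Intermediate granulocyte-like over mature monocyte-like cells was a log2 ratio of 1.23 (0.99 to 1.47) in DMSO and 1.39 (1.05 to 1.73) in DAB.

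Mapk3 had the same granulocyte class at its top. In DMSO it was at 233.5 CPM in intermediate granulocyte-like, 229.7 in mature PMN-like, 211.1 in macrophage-like, 174.9 in chemokine-high granulocyte-like, 173.6 in immature monocyte-like, 166.4 in activated dendritic cell-like, 145.0 in granulocyte progenitor-like, 126.0 in mature monocyte-like, 112.6 in basophil or mast cell-like and 88.1 in B cell-like cells. In DAB, mature PMN-like cells were first at 217.2 and B cell-like cells again last at 71.7. Between neighbours the interval left out 0 in 3 of 9 pairs in DMSO and in 4 of 9 in DAB, while the first pair of classes in each library did not differ beyond counting error.

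Map2k2 had that class at the other end. The intermediate granulocyte-like class was its lowest in DMSO, at 54.2 CPM, below B cell-like cells at 79.3, basophil or mast cell-like at 81.9, macrophage-like at 95.4, granulocyte progenitor-like at 102.0, mature monocyte-like at 102.1, immature monocyte-like at 104.5, activated dendritic cell-like at 108.9 and chemokine-high granulocyte-like at 114.1, up to mature PMN-like at 142.9 (127.1 to 160.2). The log2 ratio of the mature PMN-like over the intermediate granulocyte-like class was 1.40 (1.17 to 1.63) in DMSO and 1.11 (0.91 to 1.32) in DAB, and it was 0.74 and 0.82 with median-of-ratios scaling between the classes. The pair of granulocyte classes that lay together for Mapk3 thus lay at opposite ends for Map2k2 in DMSO. Of 9 neighbouring pairs, 2 in DMSO and 3 in DAB differed beyond counting error.

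Map2k1 varied least over the 5 largest classes in DMSO among the 6 genes. From chemokine-high granulocyte-like cells at 113.4 CPM it went through mature PMN-like at 107.1, B cell-like at 104.3, basophil or mast cell-like at 99.8, intermediate granulocyte-like at 95.4, activated dendritic cell-like at 80.4, immature monocyte-like at 79.9, granulocyte progenitor-like at 78.5 and mature monocyte-like at 75.1 to macrophage-like at 64.6, and only 1 of 9 neighbouring pairs had an interval without 0. Over the 5 largest classes its highest and lowest levels were 0.59 apart on the log2 scale in DMSO and 0.67 in DAB, and 10.2% and 16.6% of genes had a smaller range. The DAB value, mature PMN-like over mature monocyte-like cells, was lower with median-of-ratios scaling, as given in the closing section. For scale, the median gene had a range of 1.23 in DMSO and 1.14 in DAB.

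The orders of Araf and Ksr1 had few neighbours apart. Araf was highest in granulocyte progenitor-like cells in both libraries, at 42.9 CPM in DMSO and 43.2 in DAB, and lowest in intermediate granulocyte-like cells in DMSO, at 20.3, and in basophil or mast cell-like cells in DAB, at 22.6. No pair of neighbours in DMSO and 1 of 9 in DAB differed beyond counting error. Over the 5 largest classes in DAB, Araf had a range of 0.37 on the log2 scale, and 2.85% of genes had a smaller one. Ksr1 was highest among the myeloid classes in mature PMN-like cells in both libraries, at 56.2 and 40.2 CPM, with 1 of 9 neighbouring pairs apart in each library. These levels were 2.45-fold and 2.43-fold above those of mature monocyte-like cells (log2 ratios 1.29, 0.94 to 1.64, and 1.28, 1.02 to 1.54). Both ratios were lower with median-of-ratios scaling between the classes, as given in the closing section.

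**Figure D3:**
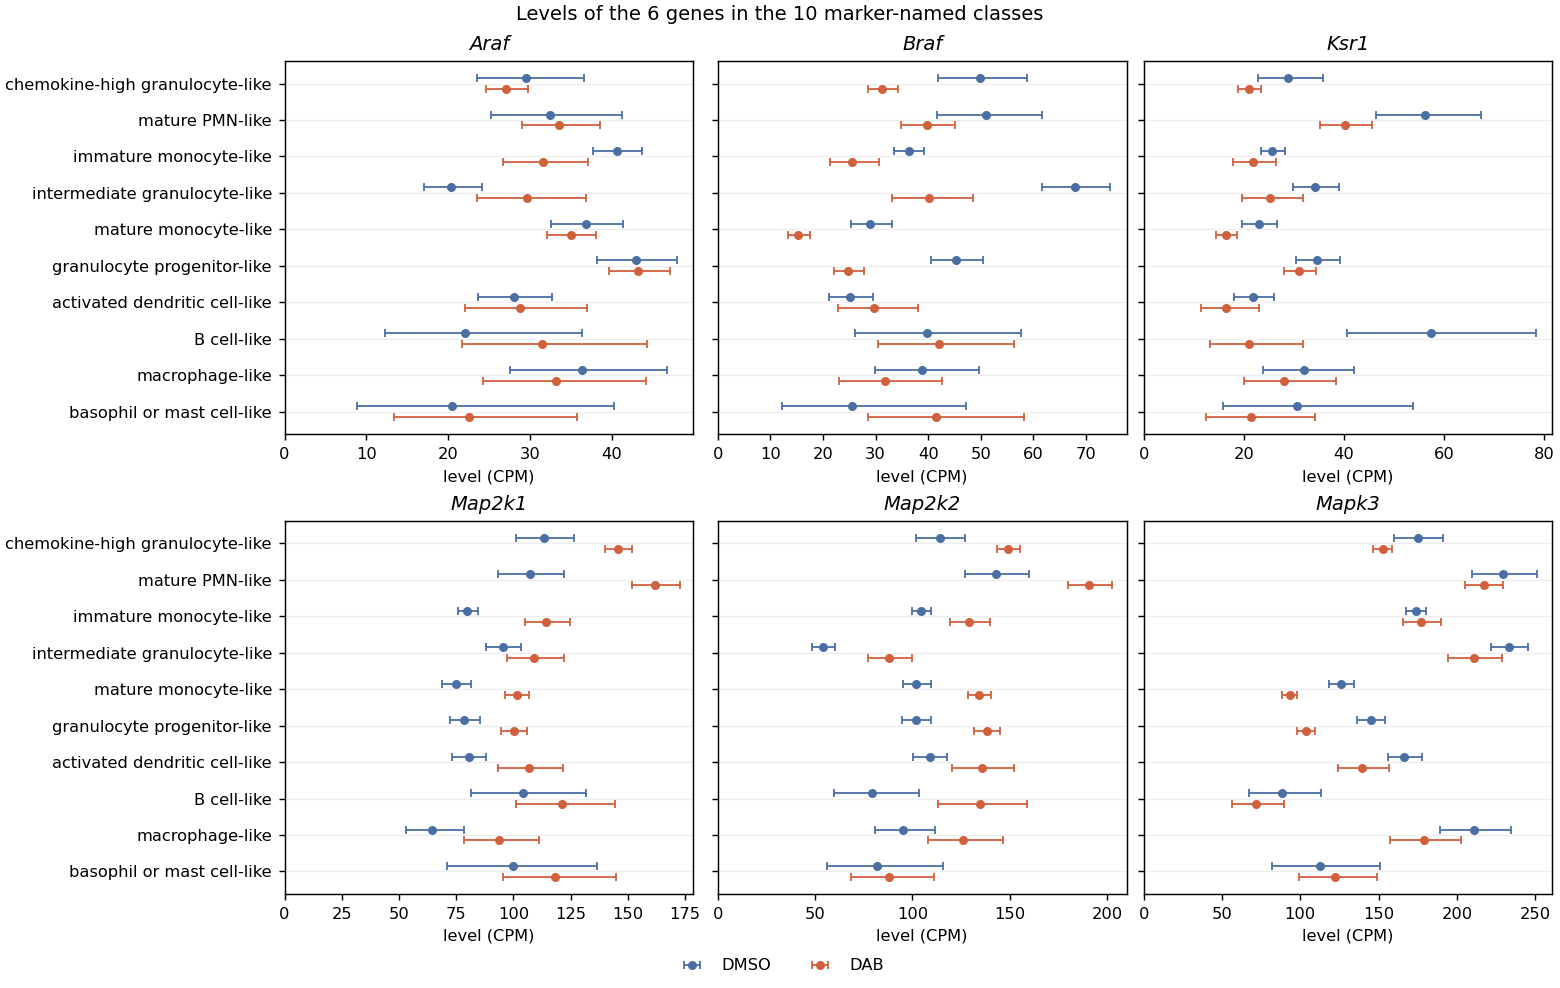
Levels (x axis, CPM from 0) of the 6 genes in the 10 compared classes (y axis), with exact Poisson 95% intervals, DMSO in blue and DAB in orange. In intermediate granulocyte-like cells of DMSO, Braf is at 67.9 and Mapk3 at 233.5, their highest, while Araf at 20.3 and Map2k2 at 54.2 are at their lowest.

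Shares within a pair of related genes do not depend on depth or scaling, and they are compared here only between classes and libraries. The share of Araf among Araf and Braf UMIs was 43.7% in DMSO (42.6 to 44.9) and 55.3% in DAB (54.2 to 56.3). It was higher in DAB in 8 of 10 classes. In intermediate granulocyte-like cells it went from 23.0% (19.6 to 26.7) to 42.4% (35.3 to 49.8), in mature monocyte-like cells from 55.9% (51.4 to 60.3) to 69.5% (66.1 to 72.8), and in granulocyte progenitor-like cells from 48.6% (44.7 to 52.6) to 63.5% (60.1 to 66.8). In these 3 of the 10 classes the intervals of the libraries did not meet.

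For the MEK pair, the share of Map2k1 among Map2k1 and Map2k2 UMIs was 48.5% in DMSO (47.7 to 49.2) and 46.7% in DAB (46.2 to 47.2). The intermediate granulocyte-like class stood apart from the other large classes, at 63.8% in DMSO (60.6 to 66.8) and 55.3% in DAB (51.0 to 59.5). Immature monocyte-like cells were at 43.3% and 47.0%, mature monocyte-like cells at 42.4% and 43.1%, mature PMN-like cells at 42.8% and 45.9%, and chemokine-high granulocyte-like cells at 49.8% and 49.4%.

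**Figure D4:**
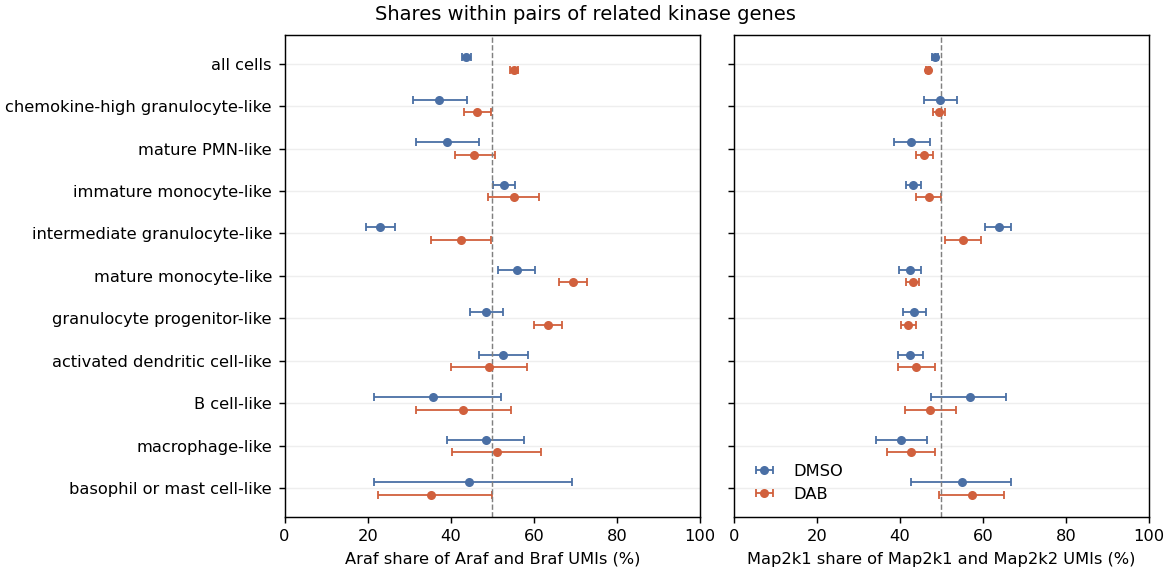
The share of Araf and of Map2k1 (x axes, percent of the UMIs of each pair) over all cells and in 10 classes (y axis), with exact binomial 95% intervals, DMSO in blue, DAB in orange and a dashed line at 50%. Intermediate granulocyte-like cells of DMSO have the lowest Araf share, 23.0%, and the highest Map2k1 share, 63.8%.

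Cell by cell, every one of the 6 genes was found in a minority of cells at equal depth. After random thinning of each cell to 1500 UMIs (436 DMSO and 289 DAB cells had fewer and were not used), a UMI of Braf was found in 7.26% (6.72 to 7.83) of the 8596 cells left in DMSO and in 4.90% (4.49 to 5.34) of the 10187 left in DAB. Map2k1 had one in 14.0% and 17.7%, Map2k2 in 13.4% and 18.6%, Mapk3 in 23.8% and 21.5%, Ksr1 in 5.00% and 4.48%, and Araf in 4.90% and 4.64%. The order of the libraries for each gene was that of its CPM, which rests on the same UMIs. For Araf (4.45 to 5.38 in DMSO, 4.24 to 5.07 in DAB) and Ksr1 (4.55 to 5.48, 4.08 to 4.90) the intervals of the libraries met. Without thinning the shares were 32.6% and 26.5% for Braf, 53.3% and 65.3% for Map2k1, 51.2% and 66.8% for Map2k2, 69.7% and 70.5% for Mapk3, 25.4% and 25.9% for Ksr1 and 25.1% and 30.6% for Araf, which also carries the greater depth of the DAB cells.

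These genes are expressed widely, so no class here is known to lack them. As a measure of free RNA, S100a8, S100a9 and Ltf, which granulocytes express, stood in B cell-like cells at 0.849% to 2.93% of their level over all cells. In the B cell-like class itself (median depths of 3976.0 UMIs in DMSO and 4867.0 in DAB) the thinned share for Braf was 6.20% of 129 DMSO and 8.05% of 174 DAB cells, and for Mapk3 12.4% and 10.3%. Mapk3, at 88.1 and 71.7 CPM in B cell-like cells beside 174.7 and 144.8 over all cells, kept a larger part of its level there than these 3 granulocyte genes did.

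Cells were also split by proliferation, with cycling cells defined by at least 3 UMIs of 22 proliferation genes after thinning. Cycling cells were 8.33% of DMSO cells (716) and 6.49% of DAB cells (661). None of the 6 genes differed between cycling and other cells by 0.5 on the log2 scale in either library. In DAB, Map2k1 had the lowest ratio of cycling over other cells, at 96.7 against 118.1 CPM (-0.29, -0.36 to -0.22), and Ksr1 the highest, at 32.0 against 26.6 (0.27, 0.14 to 0.39). In DMSO the lowest was Mapk3, at 160.8 against 176.5 CPM (-0.13, -0.20 to -0.07), and the highest Araf, at 39.2 against 32.9 (0.25, 0.11 to 0.39), with Map2k1 at -0.10 (-0.19 to -0.01) and Ksr1 at 0.17 (0.03 to 0.32). The DAB over DMSO ratio of Braf was -0.52 (-0.69 to -0.34) in cycling and -0.71 (-0.78 to -0.64) in other cells, and its level was lower past the threshold in both. Over all cells 11.4% of genes were lower by this rule, and the share within cycling or other cells was not counted.

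The patterns of the 6 genes over clusters were compared by Pearson correlation of log2(CPM + 5) over 48 points, the 24 clusters in each library. The points share libraries, clusters and depth, so the values are descriptions. Braf went most with Ksr1 (r = 0.82), which became 0.61 without cluster 17, and hardly with Araf (0.13, and -0.15 without cluster 17). Map2k1 and Map2k2 had r = 0.21, and 0.41 without that cluster. Among 5886 genes, those most like Braf were Baz2b (0.93), Rlf (0.91) and Pnpla8 (0.90), and those most like Ksr1 were Ptbp2, Mbd5 and Foxo3 (0.91 each). Without cluster 17, Baz2b had 0.87 with Braf, and the highest for Ksr1 was Foxo3 at 0.80.

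Map2k2 was most like Lsm1 (0.91, and 0.94 without cluster 17), Eif6 and Psmc5 (0.87 each). Mapk3 was most like Prdx5 (0.85), Sem1 and Znhit1 (0.83 each), but without cluster 17 Gda (0.88), Msrb1 and Dram1 took their places. For Map2k1 the nearest were Son, Nap1l4 (0.80 each) and Tmem127 (0.79), and for Araf Isoc1, 1810030O07Rik (0.73 each) and Psmd14 (0.72). Without cluster 17, Gpat3 (0.77) led for Map2k1, while Isoc1 (0.76) stayed first for Araf.

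Around these kinases, 79 further genes were listed by their role in the cascade or in the parallel JNK and p38 cascades, and 58 reached 20 CPM in either library. Of these 58, 9 were higher in DAB past the threshold and 6 lower, beside the background of 11.6% and 11.4%. The largest changes in each direction were those of Rras (193.7 CPM in DMSO and 77.6 in DAB, log2 ratio -1.32, -1.35 to -1.29), a RAS-related GTPase, Map3k8 (23.5 and 9.92, -1.24, -1.34 to -1.14), a kinase that activates MEK independently of RAF, and Map3k1 (83.3 and 39.6, -1.07, -1.12 to -1.02), which acts upstream of JNK. On the higher side were Rasal3 (11.7 and 21.7, 0.89, 0.79 to 0.99), a RAS GTPase activating protein, Hras (33.7 and 58.0, 0.78, 0.73 to 0.84) and Rps6ka4 (19.7 and 31.2, 0.66, 0.58 to 0.74), which encodes the kinase MSK2 downstream of ERK and p38. Of the genes past the threshold, Rasal3 and Rps6ka4 reached 20 CPM in DAB alone, and Map3k8, Map2k6 and Rps6ka5 in DMSO alone.

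By role, and named after their values were seen, the genes past the threshold were as follows. Map3k8, the 1 further kinase listed for the cascade itself that had enough counts, was lower. Of 7 RAS GTPases, Hras and Rheb were higher and Rras lower (median 0.28). Of 8 activators and adaptors, Rasgrp4 was higher and Rasgrp2 lower (median -0.04), and of 5 GTPase activating proteins Rasal3 was higher (0.04). The 18 partners and scaffolds held 3 higher genes, Ywhab and Ywhah, which encode 14-3-3 proteins that bind RAF, and Pea15a, which binds ERK (median 0.16). Of 9 ERK substrates Rps6ka4 was higher and Rps6ka5 lower (median 0.27), and of 10 JNK and p38 kinases Map3k5 was higher and Map3k1 and Map2k6 lower (median 0.01). Over all 5890 genes the median was 0.01, with 11.6% higher and 11.4% lower past the threshold. Each list holds few genes, so its count is a description.

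**Figure D5:**
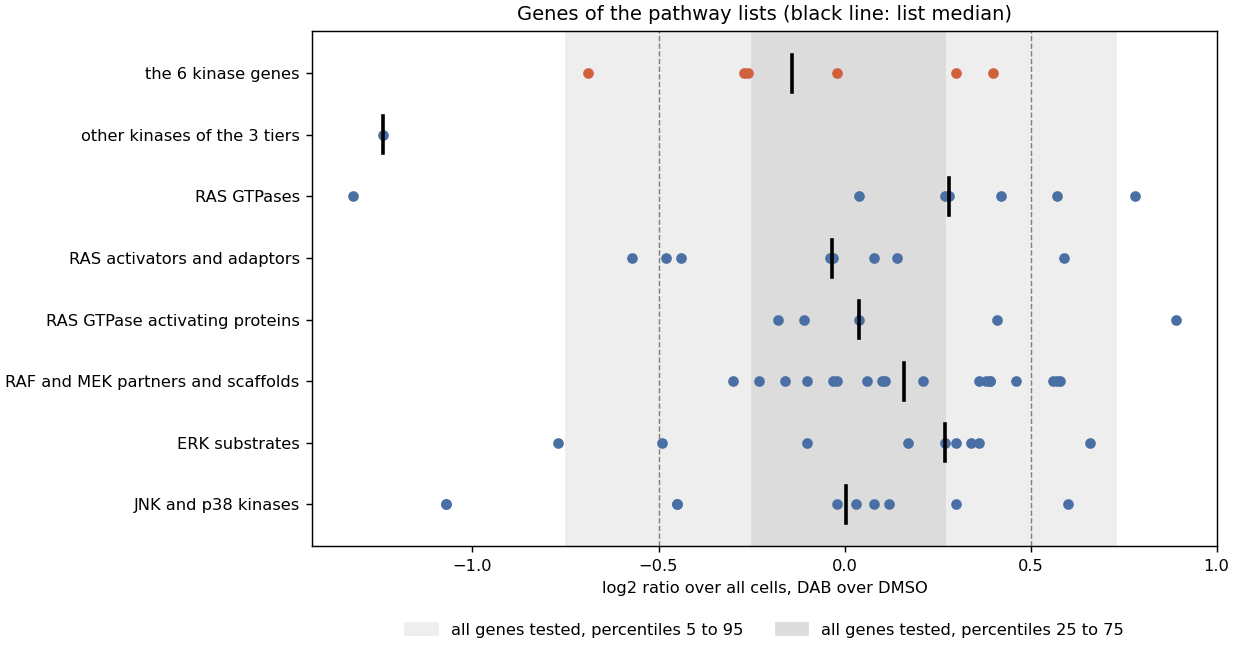
Log2 ratios over all cells (x axis) of the genes that reached 20 CPM in either library in each list (rows), with the list median as a black line, shaded bands for percentiles 5 to 95 and 25 to 75 of all 5890 genes tested, and dashed lines at 0.5 in size. Of the 6 kinase genes (orange), Braf at -0.69 lies between the 5th percentile of all genes, -0.75, and the 25th, -0.25.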

How the data were processed

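The deposited values were raw counts of UMIs for each gene in each barcode, which the authors made from 10x Genomics 5′ libraries with Cell Ranger 7.0.0 on mm10. The submitters' notes also name R 4.1.2 and Seurat 4.3.0. Whether intron reads were counted is not given in the sources read here.

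Barcodes over 10% mitochondrial UMIs (55 DMSO, 89 DAB) and those scored highest against simulated doublets, at a rate of 0.8% per 1000 cells (768 and 1066), were left out, and no barcode lay over 4 scaled median absolute deviations above the median log UMIs or genes. Both libraries were aligned by mutual nearest neighbours and clustered by Leiden (resolution 0.9) with Python 3.11.15, numpy 2.4.6, scipy 1.17.1, pandas 2.3.3, scikit-learn 1.9.0, igraph 0.11.9 and leidenalg 0.10.2. A cluster was named where at least 3 markers of a list, and most of those detected, were raised and its leading genes held more of them than of any other list, under a naming rule set after the clusters were seen, and cluster 23 of the progenitor class was led by Mt2 and Mt1.

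UMIs were summed over cells per library or class and scaled to CPM, and ratios were read for genes that reached 20 CPM in either library. Gene positions came from GENCODE vM21 (GRCm38). The named genes are the 6 kinase genes, the 3 other listed genes that differed most in each direction, and the 3 genes most correlated with each kinase gene. The other listed genes past the threshold were named after their values were seen. The members and lists were chosen with earlier results of these data known, and some planned values are not reported here. On simulated Poisson counts for 5510 genes of the comparison over all cells, with 200 changed by 1 on the log2 scale, 95.1% of true ratios lay in their intervals, 100.0% of changed genes were called and 0 of the others. The intervals assume the same counting error, so this checks the calculation only. Neither smaller changes nor differences between libraries of 1 condition were simulated. Alternatives covered scaling, cell and doublet filters, clustering, thinning and the CPM minimum.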

Additional observations from a re-analysis of the deposited data

How the results depend on the processing

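Of 124 alternative values that bear on a comparison, 33 moved by more than the counting interval and 91 did not, and of 392 values in single classes or lists, 31 moved. None of the 33 turned the sign of a ratio past the threshold, which over all cells Braf alone had passed. UMIs per cell without scaling turned the sign of Araf, Mapk3 and Ksr1, took Braf under the threshold and took Map2k1 and Map2k2 past it. The mean over cells also took Map2k2 past it. The cause of a move was not tested unless the setting itself sets it. With UMIs per cell and no scaling, which adds 0.40 to every log2 ratio, Araf was at 0.38, Braf at -0.29, Map2k1 at 0.70, Map2k2 at 0.80, Mapk3 at 0.13 and Ksr1 at 0.14. With the mean over cells, Araf was at 0.07, Map2k2 at 0.56 and Mapk3 at -0.23. With clusters weighted alike in both libraries, Braf was at -0.61, Map2k2 at 0.35 and Mapk3 at -0.20. Between classes, median-of-ratios scaling gave log2 ratios of mature PMN-like over intermediate granulocyte-like cells of 0.74 in DMSO and 0.82 in DAB for Map2k2. For mature PMN-like over mature monocyte-like cells it gave 0.93 in DMSO and 0.86 in DAB for Ksr1, 0.25 in DAB for Map2k1 and 0.80 in DAB for Mapk3, and for intermediate granulocyte-like over mature monocyte-like cells 1.05 in DMSO for Mapk3. At a Leiden resolution of 0.5, the DAB ratio of mature PMN-like over mature monocyte-like cells was 1.05 for Mapk3 and 0.80 for Ksr1. Without thinning, the percent of cells with a UMI in DMSO was 25.1 for Araf, 32.6 for Braf, 53.3 for Map2k1, 51.2 for Map2k2, 69.7 for Mapk3 and 25.4 for Ksr1, and in DAB 30.6, 26.5, 65.3, 66.8, 70.5 and 25.9 in the same order. The exclusion of cluster 17, and of clusters 8 and 17, was chosen after seeing the data. No paired analysis was possible because each condition had 1 library. With 1 library per condition, the difference between the cultures cannot be told apart from that between the libraries.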
